A study of Rattus norvegicus with 6 samples.

Results

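The 10 genes Acly, Acaca, Fasn, Scd, Elovl1, Elovl2, Elovl5, Elovl6, Fads1 and Fads2 encode the enzymes that build long-chain fatty acids in liver and then lengthen and desaturate them. They were taken by name, as every non-control probe whose transcript accession belongs to one of these rat symbols, which gave 13 probes out of 30367 on the array, all of them tested. Each gene was well above background on all 6 arrays, and the 10 genes are part of 16389 genes and features tested. The arrays hold liver RNA of male Wistar Hannover rats, bought at 4 weeks of age and kept for 1 week before dosing. In the control group 3 rats received the corn oil vehicle by gavage for 7 days, and in the treated group 3 rats were gavaged for as long with PCN (pregnenolone-16α-carbonitrile), 100 mg/kg each day. PCN, a steroid made in the laboratory, is a ligand of the rodent pregnane X receptor (PXR), the nuclear receptor by which hepatocytes sense foreign compounds. Signals are given as log2 of the processed signal relative to the 75th percentile of the array, and differences as log2 changes, PCN minus control, with the standard error (SE) from limma.

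Liver turns surplus carbohydrate into fat in the cytosol. ATP citrate lyase (Acly) makes acetyl-CoA from citrate, acetyl-CoA carboxylase (Acaca) makes malonyl-CoA from it in the committed step, and fatty acid synthase (Fasn) joins these units into palmitate. Elongases (Elovl) of the endoplasmic reticulum then add carbon pairs, each with its own range of substrates, and desaturases insert double bonds, Scd in saturated chains and Fads1 and Fads2 in the polyunsaturated chains that derive from dietary linoleic and linolenic acid. Transcription of most of these genes is known to respond to SREBP-1c, to the carbohydrate sensor ChREBP and to liver X receptors, and PXR activators are known to alter lipid handling in rodent liver.

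The libraries followed their labels, since Cyp3a23-3a1, the classical PXR-inducible cytochrome P450 of rat liver, read 3.54 to 4.14 on the control arrays and 8.14 to 8.43 on the PCN arrays. Each group had a slide of its own, and effects of slide and of PCN cannot be told apart. Median local background was 37 to 39 on the control slide and 26 to 30 on the PCN slide. The 75th percentile of the processed signal ranged from 634 to 758 in controls and from 488 to 627 with PCN, and was lowest on PCN array 3. Of 10 hepatocyte markers, all tested, 1 rose (Hnf4a, 0.63, adjusted p = 0.016) and 0 fell. Over all tested genes 4.37% were called higher and 15.5% lower (adjusted p under 0.05). The summed signal of the 10 markers, in multiples of the 75th percentile, was 2440 to 2590 in controls and 2240 to 2810 with PCN. Of the 7 adipocyte markers, neither Adipoq nor Lep was well above background anywhere, Retn was on 2 arrays of each group, and Plin1 had no probe matched. The 3 tested ones, Cidec, Cfd and Fabp4, were well above background on all 6 arrays. Of these 0 passed the test (summed signal 6.00 to 6.60 in controls and 4.72 to 5.25 with PCN).

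Of the 10 genes, 1 fell with PCN and 0 rose, and 9 did not pass the test (limma, Benjamini-Hochberg adjusted p under 0.05 over all tested genes). Over all tested genes the test called 19.9%, with 15.5% lower and 4.37% higher, so that 1 call among 10 is no more than the background. Counted by probe, 1 of 13 passed, against 18.9% of all tested probes, and without adjustment 3 of 10 genes had p under 0.05 (Elovl5, Fads2 and Scd), against 34.5%. The gene that fell was the elongase Elovl5. The groups did not overlap for Elovl5 and Fads2, or 2 of 10 genes, both lower with PCN, against 41.4% of all tested genes in either direction and 26.7% lower. The median log2 change of the 10 genes was 0.03, beside −0.06 for all tested genes, and 5 of the 10 values were above 0 (7 with each array scaled to its median signal, or median scaling, and 2 with each scaled to its added control RNAs, or spike-in scaling).

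**Figure D1:**
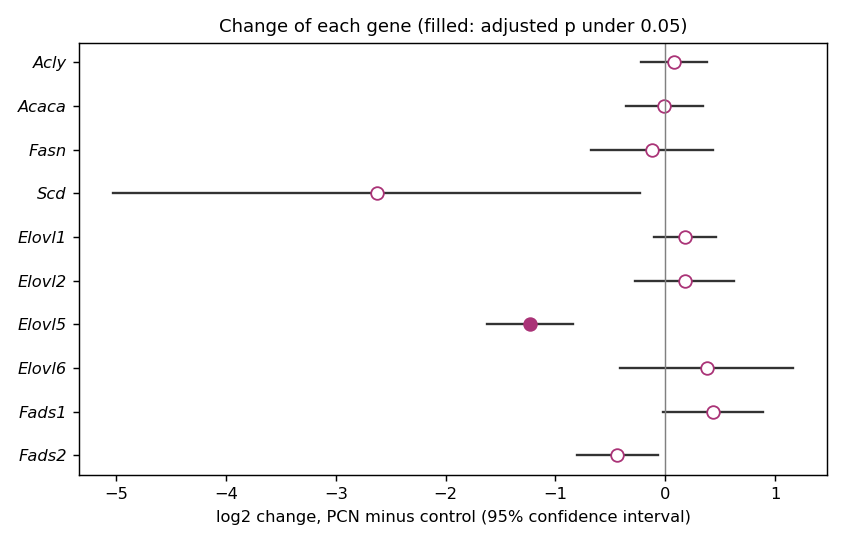
Log2 change of each gene at its brightest probe, PCN minus control, with its 95% confidence interval from limma (3 arrays per group); the vertical line marks no change and filled points have adjusted p under 0.05. Elovl5 at −1.23 is the filled point, and Scd has the widest interval, from −5.03 to −0.23.

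Elovl5 elongates polyunsaturated chains of medium length and so acts between the desaturation steps of Fads2 and Fads1. The 3 control rats, in the order of their replicate numbers, read −1.11, −1.37 and −0.87, and the 3 PCN rats −2.32, −2.55 and −2.18. All 3 treated rats lay below all 3 controls, with a gap wider than the range within either group. The change was −1.23 ± 0.16 (SE, n = 3 per group, adjusted p = 0.00439), a 2.35-fold lower signal with a 95% confidence interval of −1.63 to −0.84 on the log2 scale. In absolute size this change lay at the 93.9th percentile of all tested genes. Elovl5 was measured by 1 probe printed in 2 spots, whose log2 values differed by at most 0.17 on any array. No second probe was matched to it, so the fall rests on a single probe. It passed under each of 17 alternative settings, with changes from −1.42 under scaling to spike-in controls to −0.84 with normexp, a background correction that models signal and background together (adjusted p = 0.000719 to 0.0222). Bulk RNA cannot tell fewer cells of a type from less RNA per cell. Markers of other liver cell types differed in direction, some of them within a list, and over all tested genes 15.5% were called lower. Of 7 tested Kupffer markers 0 passed the test, with a summed signal of 36.6 to 44.1 in controls against 25.4 to 38.8 with PCN. Both tested T cell markers, Cd3d and Lck, fell, from 0.439 to 0.536 summed in controls to 0.294 to 0.329 with PCN. Lck was well above background on 3 control arrays and 1 PCN array. It was thus tested only through the group in which it is higher, and its call supports nothing. Of the untested T cell markers, Cd2 was at background throughout, and Cd3e was well above background on 0 control arrays and 1 PCN array. Of 4 tested endothelial markers 1 fell (summed 23.9 to 26.4 in controls, 22.5 to 26.0 with PCN) and of 7 stellate markers 2 fell (66.8 to 71.2, and 69.2 to 73.1). Of 3 tested cholangiocyte markers 0 passed, with a higher summed signal of 0.50 to 0.555 with PCN against 0.360 to 0.476. They differed in direction, with changes of 0.60 for Epcam, 0.19 for Krt7 and −0.41 for Krt19. The part of these cell types in the fall of Elovl5 was not tested.

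The sequences just before the transcription start are shown for Elovl5 and, for comparison, for the desaturases Scd and Fads2, which also had lower means with PCN. They are the 250 bases before the start given by RefSeq on GRCr8, read 5′ to 3′ on the strand of the gene, in lower case with motif matches in capitals.
Elovl5 promoter, chr8:87670914-87671163, plus strand: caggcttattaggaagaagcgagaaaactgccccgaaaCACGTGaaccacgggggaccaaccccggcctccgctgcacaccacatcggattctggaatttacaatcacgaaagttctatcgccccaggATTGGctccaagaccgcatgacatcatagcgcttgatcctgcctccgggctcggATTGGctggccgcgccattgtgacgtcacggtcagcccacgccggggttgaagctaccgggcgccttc
Scd promoter, chr1:253231732-253231981, minus strand: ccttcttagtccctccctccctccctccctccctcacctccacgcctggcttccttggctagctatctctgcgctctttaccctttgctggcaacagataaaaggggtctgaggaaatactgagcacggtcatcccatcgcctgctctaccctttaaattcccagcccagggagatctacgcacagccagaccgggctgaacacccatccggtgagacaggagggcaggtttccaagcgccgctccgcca
Fads2 promoter, chr1:216172034-216172283, minus strand: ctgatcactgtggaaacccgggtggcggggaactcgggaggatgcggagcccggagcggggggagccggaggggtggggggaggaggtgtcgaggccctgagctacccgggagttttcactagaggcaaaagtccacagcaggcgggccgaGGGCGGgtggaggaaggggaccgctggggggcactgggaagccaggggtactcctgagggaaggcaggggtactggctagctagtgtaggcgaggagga
A RefSeq entry was matched for 7 of the 10 genes, in 8 entries since Elovl2 has 2 starts. The motifs searched on both strands were the NF-Y box CCAAT, the GC box GGGCGG, the E-box CACGTG, the strict sterol regulatory element (ATCAC followed at once by CCCAC), its relaxed form TCACNCCAC, which overlaps the strict form, and a pair of nuclear receptor repeats. The latter were a direct repeat of AGGTCA with 4 bases between the copies, and an everted repeat with 6 bases between TGAACT and AGGTCA, both known as forms that PXR can bind. In the Elovl5 sequence the capitals mark an E-box at 212 to 207 bases before the start and CCAAT on the reverse strand at 122 to 118 and at 68 to 64 bases before it. No motif was matched in the Scd window, and the capitals in the Fads2 window mark a GC box at 99 to 94 bases. Over 33469 windows of this length, CCAAT occurs in 34.0%, the GC box in 30.5%, the E-box in 5.59%, the relaxed sterol element in 0.974%, the strict one in 0.105%, the direct repeat in 0.00299% and the everted repeat in 0.0%. Among the 8 windows of these genes CCAAT was found in 3, the GC box in 5, the E-box in 1 and each of the other motifs in 0. The 5 windows with a GC box include the 2 of Elovl2, which overlap.

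Scd is the stearoyl-CoA desaturase that makes oleic and palmitoleic acid. It read 1.49, 0.54 and 1.74 in controls and −3.28, −1.82 and 0.99 in the PCN rats. PCN rats 1 and 2 lay far below every control, while PCN rat 3 lay within the control range. The rats of the treated group thus spanned 4.26 on the log2 scale, or 19.2-fold, against 1.19 for the controls. The mean change was −2.63 ± 1.01 (SE, n = 3 per group), with a 95% interval of −5.03 to −0.23, and it did not pass the test (adjusted p = 0.117). Without PCN replicate 3 the change was −3.80 ± 0.52 and passed (adjusted p = 0.00917), while without PCN replicate 1 it was −1.67 ± 0.83 (adjusted p = 0.231). Scaling to spike-in controls also called it (−2.82, adjusted p = 0.0467). The 2 spots of the Scd probe differed by at most 0.07 on any array, a measure of error within an array only. PCN array 3 also had the lowest share of spots well above background, 61.6% against 65.0% and 65.8% on the other PCN arrays, and the part of this in the high Scd value was not tested.

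**Figure D2:**
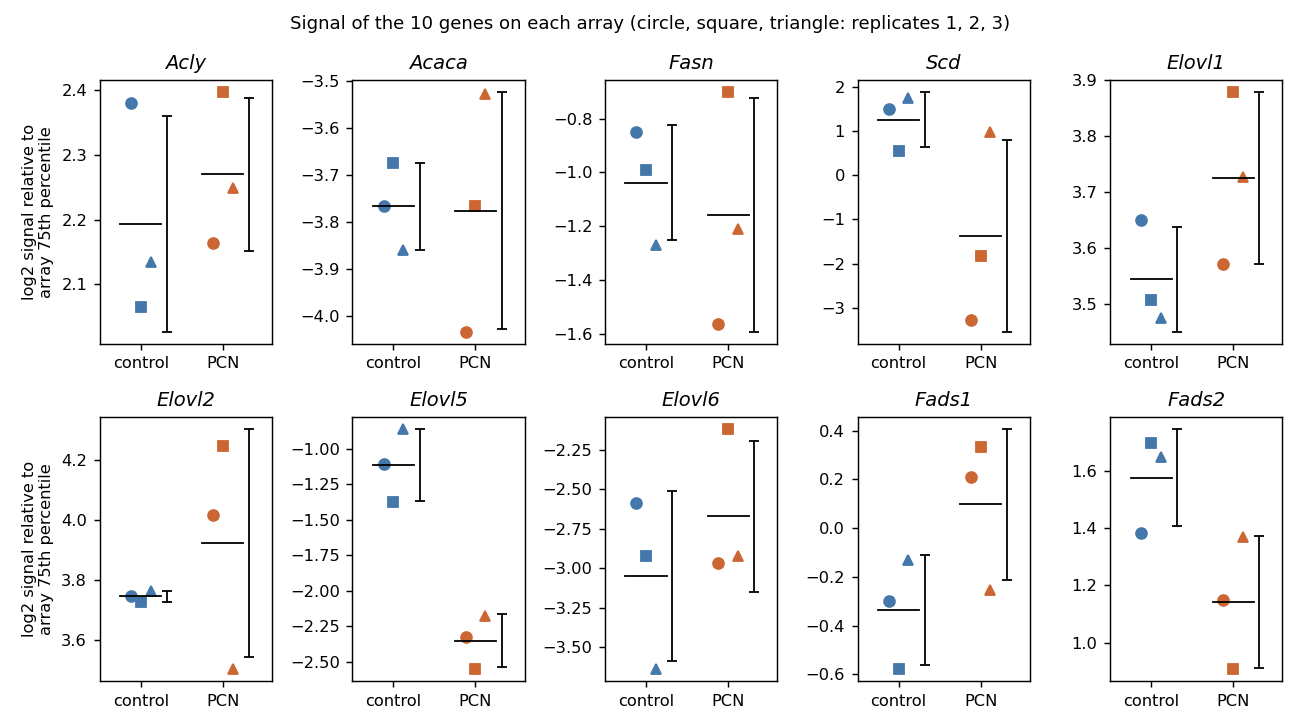
Log2 signal of each gene at its brightest probe on the 6 arrays, relative to the 75th percentile of the array; symbols are replicates 1, 2 and 3, horizontal lines group means and bars ± 1 SD (n = 3), and each panel has its own axis. The groups separate for Elovl5, Fads2 separates by a narrow margin, and for Scd the triangle of PCN replicate 3 (0.99) stands with the controls, well above −3.28 and −1.82.

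Fads2, the delta-6 desaturase that starts the conversion of linoleic acid to longer polyunsaturated acids, read 1.38, 1.70 and 1.65 in controls and 1.15, 0.91 and 1.37 with PCN. The highest treated rat lay just under the lowest control. Its change was −0.44 ± 0.15 (95% interval −0.80 to −0.07, unadjusted p = 0.0269, adjusted p = 0.0957). Fads1, the delta-5 desaturase that completes arachidonic acid, had the opposite sign, with −0.30, −0.58 and −0.13 in controls and 0.21, 0.33 and −0.25 with PCN. PCN rats 1 and 2 lay above all controls and PCN rat 3 among them. Its change was 0.43 ± 0.19 (95% interval −0.02 to 0.89, adjusted p = 0.161), the highest of the 10 genes. Neither desaturase passed, but the scale decided their side of the threshold. Fads2 passed with spike-in scaling (−0.62, adjusted p = 0.0318) and Fads1 with median scaling (0.64, adjusted p = 0.0496). These scalings moved the median change of all tested genes from −0.06 to −0.25 and to 0.14. Relative to that median Fads2 was at −0.37, Fads1 at 0.50 and Elovl5 at −1.17, values that these scalings cannot alter because each shifts all genes of an array alike.

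The 3 enzymes of palmitate synthesis did not pass the test. Acly had the steadiest values of the 3. It read 2.38, 2.06 and 2.13 in controls and 2.16, 2.40 and 2.25 with PCN. Its change of 0.08 ± 0.13 had a 95% interval of −0.22 to 0.38 (adjusted p = 0.706), and its mean turned to −0.11 with spike-in scaling, as did Elovl1 and Elovl2 to −0.01. Acaca read −3.77, −3.67 and −3.86 in controls and −4.03, −3.77 and −3.53 with PCN, a change of −0.01 ± 0.15 (95% interval −0.36 to 0.34, adjusted p = 0.975). Its processed signal lay between 33.5 and 65.4, and its 2 spots differed by up to 0.46, against 0.05 for Acly and 0.13 for Fasn. Spot error is thus a larger part of the Acaca value than of theirs. Fasn read −0.85, −0.99 and −1.27 in controls and −1.56, −0.70 and −1.21 with PCN. PCN rat 1 was the lowest and PCN rat 2 the highest of all 6, and the change was −0.12 ± 0.23 (95% interval −0.67 to 0.43, adjusted p = 0.755). The groups overlapped for all 3 genes.

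The other 3 elongases also stayed short of the threshold. Elovl1, which acts on saturated and monounsaturated very long chains, read 3.65, 3.51 and 3.48 in controls and 3.57, 3.88 and 3.73 with PCN, a change of 0.18 ± 0.12 (95% interval −0.10 to 0.46, adjusted p = 0.330). Its other probe gave 0.01 ± 0.11. Elovl6, which lengthens palmitate to stearate, read −2.59, −2.92 and −3.64 in controls and −2.97, −2.12 and −2.92 with PCN, a change of 0.38 ± 0.33 (95% interval −0.41 to 1.17, adjusted p = 0.468). Its second probe lay near background, with a processed signal of 5.96 to 28.3 and spots differing by up to 1.46, and gave 0.72 ± 0.40 (adjusted p = 0.258 over all tested probes). It was well above background on 2 of 3 control arrays and on all 3 PCN arrays, so it was tested only through the group in which it is higher, and the call that normexp gave it (0.35, adjusted p = 0.0349) supports nothing.

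Elovl2 takes over from Elovl5 along the same pathway and lengthens chains toward docosahexaenoic acid. Its brighter probe read 3.75, 3.73 and 3.76 in controls, an SD of 0.02 that lay at the 1.36th percentile of all tested genes, and 4.02, 4.25 and 3.50 with PCN. PCN rats 1 and 2 lay above the narrow control range and PCN rat 3 below it. The change was 0.18 ± 0.19 (95% interval −0.28 to 0.63, adjusted p = 0.560). Its second probe repeated this order, with 1.37, 1.37 and 1.44 in controls and 1.93, 1.95 and 1.27 with PCN (0.32 ± 0.19, adjusted p = 0.294 over all tested probes). Without PCN replicate 3 the second probe was called (0.54 ± 0.11, adjusted p = 0.0275) and the brighter one was not (0.39 ± 0.12, adjusted p = 0.0978). Elovl2 and Elovl5 thus differed in direction in PCN rats 1 and 2, while in PCN rat 3 both lay below the controls.

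The spread between rats was widest for Scd, and the median spread of the set was above that of all tested genes in both groups. The SD over the PCN arrays exceeded that over the control arrays for 7 of 10 genes, against 60.0% of all tested genes. The median SD was 0.19 in controls and 0.28 with PCN for the 10 genes, and 0.14 and 0.17 for all tested genes. Scd stood highest, with an SD of 2.17 over the PCN arrays, and 11 of 16389 genes had a larger one. In controls it was 0.63, at the 96.9th percentile, and Elovl6 followed at 0.54, the 95.5th percentile. Within the treated group PCN rat 1 was lowest for 6 of the 10 genes (Acly, Acaca, Fasn, Scd, Elovl1 and Elovl6) and highest for 0. PCN rat 2 was highest for 6 (Acly, Fasn, Elovl1, Elovl2, Elovl6 and Fads1). PCN rat 3 was highest for Acaca, Scd, Elovl5 and Fads2 and lowest for Elovl2 and Fads1. Relative to the mean of PCN rats 1 and 2 it was 3.53 higher for Scd, and 0.63 and 0.53 lower on the log2 scale for Elovl2 and Fads1 (differences −0.63 and −0.53). Cyp3a23-3a1 read 8.43 in PCN rat 3, and 8.14 and 8.17 in PCN rats 1 and 2. Its relation to the differences between these rats was not tested.

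**Figure D3:**
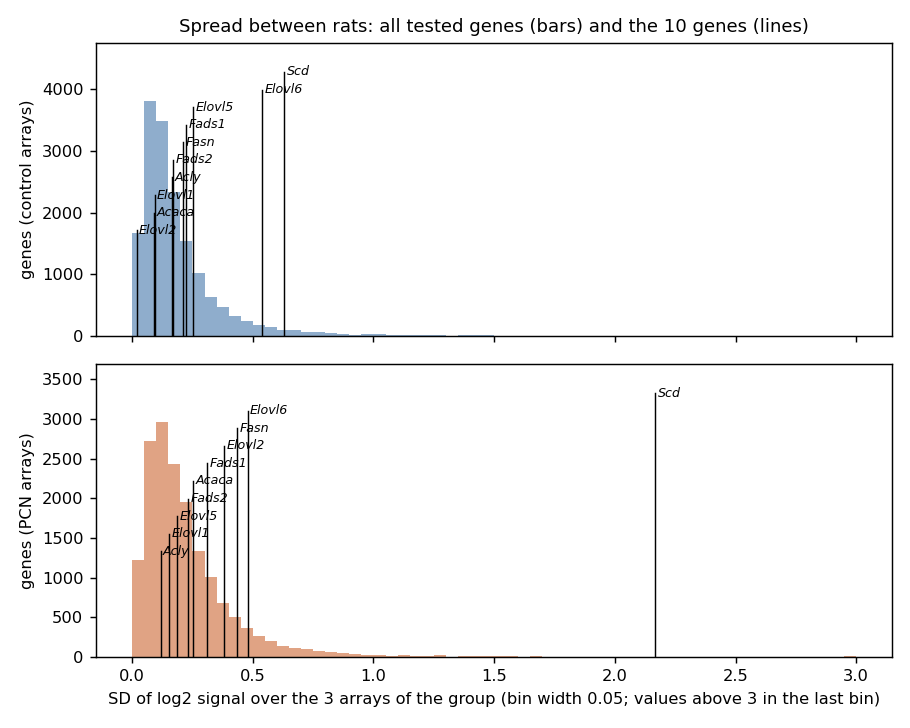
Number of tested genes (bars) by the SD of log2 signal over the 3 arrays of a group, controls above and PCN below, with the 10 genes as labelled lines whose heights only keep the names apart. Scd moves from 0.63 in controls to 2.17 with PCN, while the other 9 genes stay at or under 0.54 in both groups.

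**Figure D4:**
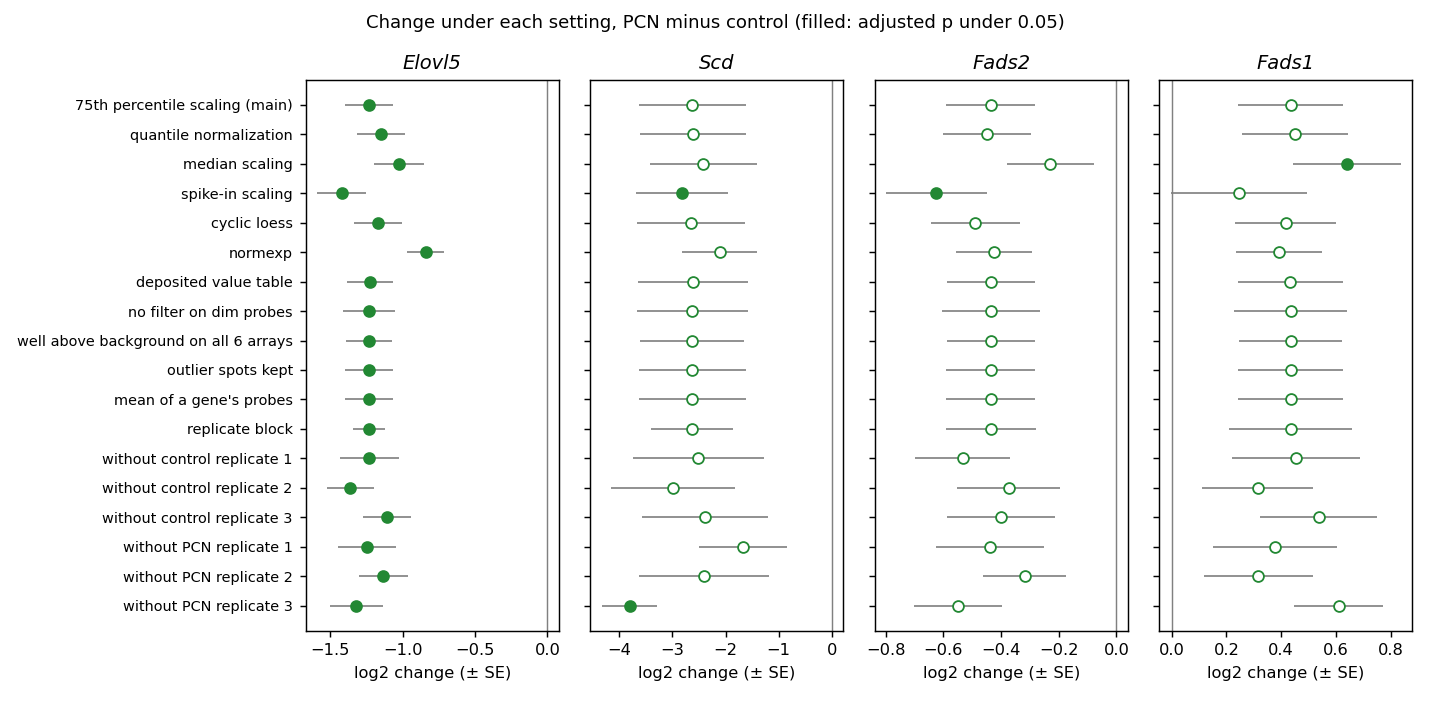
Log2 change with its SE for Elovl5, Scd, Fads2 and Fads1 under the main and 17 alternative settings; filled points have adjusted p under 0.05. Elovl5 is filled throughout, Scd without PCN replicate 3 and with spike-in scaling, Fads2 with spike-in scaling and Fads1 with median scaling.

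The partners of these enzymes were described through 7 lists of pathway genes. Of 77 tested partner genes 6 rose and 6 fell, or 15.6%, against 19.9% of all tested genes (4.37% higher and 15.5% lower). The median change of the partner genes was 0.02, and 12 of them were called. The count was 23 with median scaling, and 4, 5, 7 and 7 without control replicate 1, control replicate 2, PCN replicate 1 and PCN replicate 3.

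In the electron supply of the desaturases the gene that passed was Cyb5a, the cytochrome b5 that hands electrons to Scd and also to P450 enzymes. It read 4.96, 5.0 and 5.14 in controls and 5.97, 5.84 and 6.07 with PCN. It rose by 0.93 ± 0.11 (adjusted p = 0.00269) and passed under all 17 alternatives. Of the 5 tested genes of this list 1 rose and 0 fell, with a median of 0.32. The share called was close to the 19.9% over all tested genes in either direction, where 4.37% were called higher. Cyb5r3, the reductase that feeds cytochrome b5, gave 0.60 ± 0.24 (adjusted p = 0.129) and was named after its value was seen.

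In the supply of acetyl-CoA, NADPH and glycolytic carbon 1 of 14 tested genes rose and 0 fell, with a median of 0.00. Over all tested genes 4.37% were called higher and 15.5% lower. The gene that rose was Tkt, the transketolase of the pentose phosphate pathway. It read 5.13, 5.10 and 5.23 in controls and 5.98, 6.76 and 6.13 with PCN (1.14 ± 0.21, adjusted p = 0.0118). Malic enzyme, Me1, a source of NADPH, gave 0.27 ± 0.34, and the citrate carrier Slc25a1, which delivers the substrate of Acly, gave 0.00 ± 0.14 (adjusted p = 0.613 and 0.989). Both genes were named after their values were seen.

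Among the other elongases, desaturases and carboxylases 4 of 10 were tested, of which 1 rose and 0 fell. Over all tested genes 4.37% were called higher and 15.5% lower. The gene that rose, Fads3, a relative of Fads1 and Fads2, gave 0.37 ± 0.10 (adjusted p = 0.0473). The call was lost in each of the 6 fits with an array left out (adjusted p = 0.0580 to 0.140), with spike-in scaling (0.19, adjusted p = 0.501) and with normexp (adjusted p = 0.0631). Scd2, the close paralog of Scd, did not follow it. It read −2.24, −1.78 and −1.63 in controls and −1.58, −1.95 and −1.98 with PCN (0.04 ± 0.19, adjusted p = 0.897, named after its values were seen). Acacb was well above background on 2 arrays of each group, Elovl3 on 1 control and 2 PCN arrays, and Elovl4 and Elovl7 on 0. Of the 8 tested genes of the other elongation steps and of mitochondrial synthesis 1 fell and 0 rose, beside the same shares over all tested genes. Oxsm, the mitochondrial ketoacyl synthase, fell by 0.42 ± 0.12 (adjusted p = 0.0484). That call too ended in all 6 fits with an array left out (adjusted p = 0.0769 to 0.147) and with median scaling (−0.21, adjusted p = 0.211). Tecr, the reductase that completes each elongation cycle, gave 0.40 ± 0.16 (adjusted p = 0.126), and was picked out once its value was known.

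Of 26 tested regulators 1 rose and 4 fell, a share near the 19.9% called over all tested genes, with a median of 0.03. Srebf1, which encodes SREBP-1c, had no probe matched through its accession and was not analysed here. The sterol-responsive brake Insig1 read 0.28, 1.17 and 0.59 in controls and −0.45, −1.32 and −0.22 with PCN, a fall of 1.35 ± 0.34 (change −1.35, adjusted p = 0.0350). Its relative Insig2, named after its value was seen, went the other way, with 4.46, 4.16 and 4.34 in controls and 4.94, 4.95 and 5.05 with PCN (0.66 ± 0.11, adjusted p = 0.010, but 0.47 and 0.0808 with spike-in scaling). Both proteins hold the SREBP escort Scap in the endoplasmic reticulum, and Scap itself, also named after its value was seen, gave 0.02 ± 0.12. Thrsp, a thyroid hormone responsive regulator of lipogenesis, gave −0.93 ± 0.23 (adjusted p = 0.0346), the fatty acid receptor Ppard −0.94 ± 0.18 (adjusted p = 0.0143) and Mbtps2, a protease that releases active SREBP, −0.71 ± 0.15 (adjusted p = 0.0205). Ppard and Mbtps2 had low signals. Ppard read −3.49, −3.58 and −3.94 in controls and −4.65, −4.85 and −4.33 with PCN. Mbtps2 read −4.20, −4.17 and −4.56 in controls and −4.98, −4.87 and −5.22 with PCN. With normexp Ppard and Mbtps2 gave −0.25 and −0.01 and were not called (adjusted p = 0.180 and 0.969). Quantile normalization also lost Mbtps2 (−0.41, adjusted p = 0.0977). The mean of the Ppard probes gave a smaller fall than the brightest probe (−0.69, adjusted p = 0.0197). Insig1 was called in the fit without PCN replicate 3 but in none of the other fits that left an array out (adjusted p = 0.0522 to 0.0929). Omitting control replicate 1, control replicate 2, PCN replicate 1 or PCN replicate 3 ended the call of Thrsp (adjusted p = 0.0785 to 0.0947). For Mbtps2 the same held of both those controls and of PCN replicate 3 (adjusted p = 0.0548 to 0.0710), and for Ppard of control replicate 1 (adjusted p = 0.0525). The nuclear receptors and sensors known to drive lipogenesis, Nr1h3 (0.18 ± 0.13) and Mlxipl (−0.20 ± 0.15), did not pass (adjusted p = 0.355 and 0.415). Both were named with their values known.

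In the list of acyl-CoA synthetases, thioesterases and binding proteins 2 of 16 tested genes rose and 0 fell, with a median of −0.03. The shares over all tested genes were 4.37% higher and 15.5% lower. Acot8, a peroxisomal thioesterase, rose by 0.92 ± 0.15 (adjusted p = 0.00818) and passed under all 17 alternatives. Dbi, the acyl-CoA binding protein, rose by 0.41 ± 0.10 (adjusted p = 0.0320), a call that ended in all 6 fits with an array left out (adjusted p = 0.0589 to 0.102) and with spike-in scaling (0.23, adjusted p = 0.402). Of 4 tested genes that remodel phospholipid chains 1 fell and 0 rose, beside the same shares over all tested genes. Agpat3, an acyltransferase of phospholipid synthesis, fell by 0.67 ± 0.17 (change −0.67, adjusted p = 0.0364). The call held when PCN replicate 2 was omitted and ended when any of the other 5 arrays was (adjusted p = 0.0628 to 0.107). Median scaling ended it too (−0.46, adjusted p = 0.0959). The mean of the Agpat3 probes gave a smaller fall than the brightest probe (−0.44, adjusted p = 0.0410). Lpcat3, which places polyunsaturated chains into phospholipids, gave −0.03 ± 0.15 (adjusted p = 0.929), and was picked in the same way as Tecr.

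**Figure D5:**
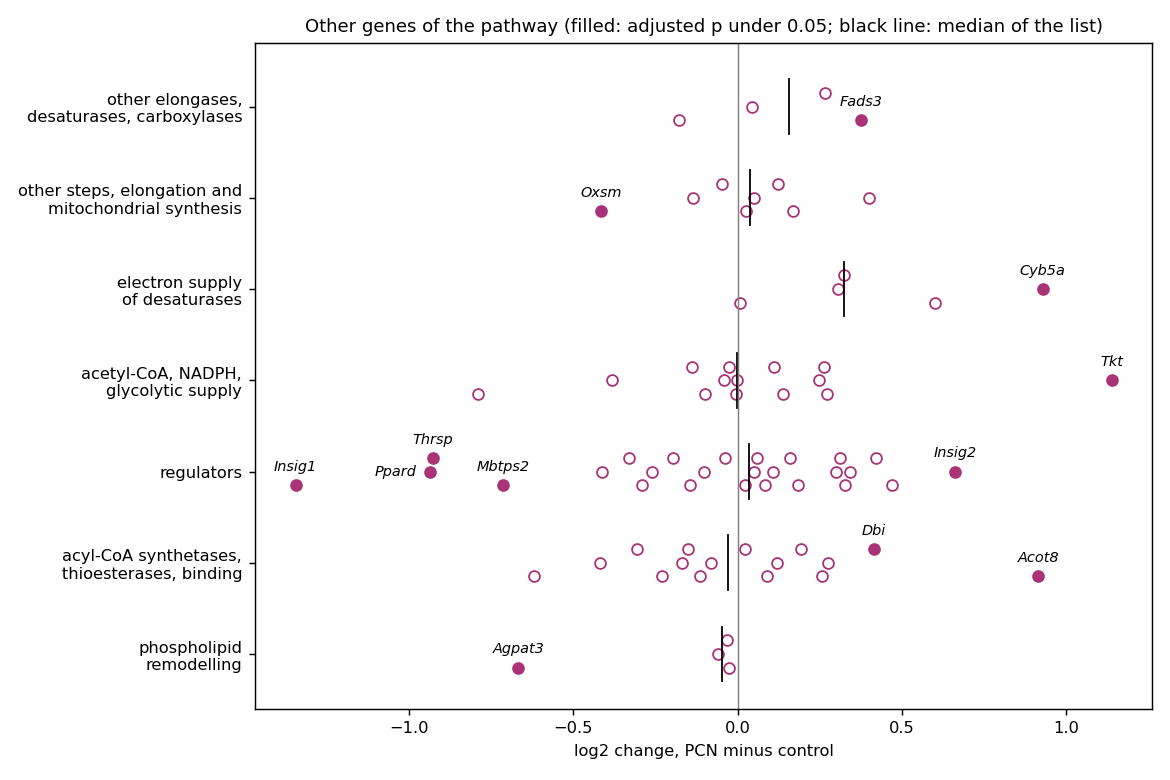
Log2 change, PCN minus control, of the 77 tested partner genes in 7 lists; filled and labelled points have adjusted p under 0.05 and black lines are list medians. Filled points lie on both sides of 0, from Insig1 at −1.35 to Tkt at 1.14, and the electron supply list has its median at 0.32.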

How the data were processed

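Scanner files of 6 arrays (3 control, 3 PCN) were used. The deposited intensity values are, per the file headers, output of Feature Extraction 10.7.3.1 (Agilent), as processed signal that is background-subtracted within the array; other marks per spot (well above background, outlier) are deposited beside them. A deposited table by the authors holds, by comparison with these files, the linear ratio of processed signal to the 75th percentile of the array, and served as an alternative with a floor of 0.01. R 4.3.3 took log2 of each intensity over the 75th percentile of non-control spots on its array. Outlier spots were left out, spots of a probe averaged, and probes kept that were well above background on all 3 arrays of a group: 18329 probes, 16389 genes after taking the brightest probe of each. A probe with several spots counted as above background where at least 50% of them were. Probes were named through transcript accessions (GRCr8 gene table; the array design names rn4). Groups were compared with limma 3.58.1 (a fit of the 6 arrays without covariates, two-sided, Benjamini-Hochberg). The number of arrays limits the precision. The labels call the samples biological replicates. Normexp (offset 50) used the median spot signal, chosen after seeing the files. The script was tested on simulated data. Members and lists were chosen with earlier results of these data known. Partner genes named are up to 4 called per list with the largest change, and others are marked. Motifs and the display of promoters were chosen after the expression values were seen.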

Additional observations from a re-analysis of the deposited data

How the results depend on the processing

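Elovl5 kept its direction and its call under all 17 alternatives. The count of the 10 genes called was 1 under 14 of them. It was 2 with median scaling (Elovl5 and Fads1) and 3 with spike-in scaling (Elovl5, Fads2 and Scd), and 1 to 2 with an array left out. Counted over the 13 probes it was 2 with median scaling, 3 with spike-in scaling, 2 with normexp (chosen after seeing the files) and 1 to 3 with an array left out. The median change of the 10 genes ranged from −0.15 to 0.24, so its sign is not settled. The count of partner genes, 12, became 23 with median scaling, 5 with no filter on dim probes, 6 with the replicate block, and 4 to 10 with an array left out. Over all genes 3263 calls became 4552 with median scaling, 2224 with normexp, 1967 with no filter, where more genes were tested, 2067 with the replicate block and 2023 to 2592 with an array left out. The share of lower genes among all calls was 78.1%. Quantile normalization gave 65.9%, median scaling 41.0%, spike-in scaling 95.6% and normexp 64.4%. The cause of these shifts was not tested. The labels do not say that the replicate numbers pair the rats. Deviations of same-numbered arrays correlated at −0.10, −0.03 and −0.05, and 0 arrays correlated best with their own number. With 3 arrays per group these values cannot exclude a weak pairing. The replicate block called Elovl5 as well (adjusted p = 0.0102). Normexp on the mean spot signal, planned at the start, was not run. Among the 13 probes of the 10 genes, signal over background limits Acaca and the second Elovl6 probe most. Of the called partner genes, Ppard and Mbtps2 were also dim.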

Other observations

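The acyl-CoA thioesterases Acot1, Acot2, Acot3 and Acot4, closely related paralogs whose probes may detect each other's transcripts, differed between rats more than between groups. Acot1 read 4.02, 3.68 and 1.47 in controls and 2.32, 4.07 and 2.10 with PCN. Acot4 read 4.94, 4.74 and 4.00 in controls and 4.10, 5.04 and 4.19 with PCN. For all 4 genes control rat 1 was highest and control rat 3 lowest of their group, and PCN rat 2 was highest of the treated group. Their changes lay between −0.62 and −0.12, and 0 of 4 passed the test. PCN rat 2 was also the highest treated rat for Fasn and Elovl6. These genes were singled out after their values were seen, and no test of the pattern was made.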
